A study of Homo sapiens with 12 samples.

Results

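Incipient mesoderm-like cells (iMeLC) with a knockout of the TET1 catalytic domain (CDKO) were compared with human embryonic stem cells (hESC) of the same knockout genotype. The comparison used the 6 knockout libraries among the 12 of the series, 3 of CDKO iMeLC and 3 of CDKO hESC, and all genes of the deposited count tables. The CDKO samples are labelled CDKO1102, CDKO1105 and CDKO1312, but the hESC columns carry only a genotype and a number from 1 to 3, so values below run in that order of lines for iMeLC and 1, 2 and 3 for hESC, and the numbers pair with no line. The other 6 libraries, CTRL iMeLC and CTRL hESC, are labelled CTRL1101, CTRL1106 and CTRL1109 and gave the same stage comparison without the knockout. All of these lines derive from UCLA1, an established hESC line, and whether each line is a single clone is not stated. Gene expression was measured by bulk RNA sequencing of total RNA at both stages, on the way to primordial germ cell-like cells. The question was which genes differ between the starting cells and the mesoderm-like intermediate when TET1 lacks its catalytic domain.

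TET1 is a dioxygenase that oxidises 5-methylcytosine in DNA, the first step of an active demethylation pathway completed by the glycosylase TDG and base excision repair. iMeLC are made by brief exposure of primed pluripotent cells to activin and a WNT agonist, and the state resembles the onset of the primitive streak, the region of the embryo where mesoderm and endoderm arise. In this state WNT signalling through beta-catenin and LEF/TCF factors and NODAL signalling through SMAD2 and SMAD3 turn on streak genes such as TBXT, EOMES and MIXL1, while pluripotency factors remain expressed. Cells in this window can become germ cells when they receive BMP.

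Promoters of streak and WNT-responsive genes are shown because many of these genes rose in CDKO iMeLC, as did many genes of other lists described below. Among 35 genes of the WNT target, iMeLC marker and primitive streak lists, 21 had a row in the RefSeq promoter table (GRCh38.p14), and 16 of those 21 genes rose, against 32.1% of all genes tested. The letters CTTTGAT and CTTTGAA, which LEF/TCF factors are known to bind, were searched on both strands in the 250 bases before each start. They were found for 6 of the 21 genes, 4 of the 21 having more than 1 row, in windows of TBXT, MIXL1, SP5, CDX2, SP8 and DKK1. The CDX2 window lay wholly in the span of the gene, and its most upstream base lay in an annotated exon. Of these 6 genes 5 rose, the exception being SP8. Over all 35116 promoter rows the share with a match was 5.94%, and a match is a description of letters and not a site of binding. In the sequences below the matches are in capitals, TTCAAAG being CTTTGAA read on the other strand. Each window is cut at the first base that lies in an exon of the same gene in GENCODE 29. This left off 26 bases at the end in TBXT and 46 in MIXL1. TBXT has 2 rows, and its match is in the one that starts inside the span of the gene, in an intron of longer transcripts. The stretches shown are chr6:166167878-166168101 (minus strand) for TBXT, the mesoderm T-box factor, and chr1:226223414-226223617 (plus strand) for the homeobox factor MIXL1. Those of SP5, a WNT-responsive zinc finger factor, and DKK1, a secreted WNT inhibitor, are chr2:170715087-170715336 and chr10:52314031-52314280, both on the plus strand.
TBXT: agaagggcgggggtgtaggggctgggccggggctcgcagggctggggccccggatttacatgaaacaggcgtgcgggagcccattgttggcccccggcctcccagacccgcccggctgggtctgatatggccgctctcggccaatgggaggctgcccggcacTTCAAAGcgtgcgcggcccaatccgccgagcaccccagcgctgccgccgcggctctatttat
MIXL1: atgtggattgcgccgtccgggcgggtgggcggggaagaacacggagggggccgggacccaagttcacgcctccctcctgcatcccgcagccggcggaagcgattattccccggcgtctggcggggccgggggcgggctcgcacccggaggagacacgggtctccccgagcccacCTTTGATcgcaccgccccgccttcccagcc
SP5: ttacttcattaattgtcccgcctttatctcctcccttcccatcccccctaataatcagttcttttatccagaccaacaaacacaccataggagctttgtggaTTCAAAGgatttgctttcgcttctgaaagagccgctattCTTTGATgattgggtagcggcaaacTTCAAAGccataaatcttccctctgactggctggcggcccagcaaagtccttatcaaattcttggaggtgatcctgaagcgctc
DKK1: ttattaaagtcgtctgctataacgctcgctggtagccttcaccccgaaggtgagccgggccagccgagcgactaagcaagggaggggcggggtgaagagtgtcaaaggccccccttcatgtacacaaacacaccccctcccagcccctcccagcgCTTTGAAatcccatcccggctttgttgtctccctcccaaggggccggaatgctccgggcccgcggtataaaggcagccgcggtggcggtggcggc
Counted to the RefSeq start, with the bases left off included, the first base of the match lay 88 bases before the start in TBXT, 76 in MIXL1 and 95 in DKK1. SP5 held 3 matches, at 148, 109 and 84 bases before its start.

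CDKO iMeLC libraries held 52121702 to 89723454 counts over 23779 to 25803 detected genes, and CDKO hESC libraries held 12517593 to 18556180 counts over 26506 to 28754 genes. Stage therefore coincided with the deposited table and with depth, and these cannot be told apart in any stage difference given here. In bulk samples, fewer cells of a type and less RNA per cell cannot be told apart either. CDKO hESC 3 stood apart from CDKO hESC 1 and 2 in mesendoderm genes. It had 207 CPM (counts scaled to library size, the usual CPM unit) summed over the 8 iMeLC markers, against 64.3 and 92.3 CPM. Values without this library are therefore given for a number of genes and lists below, but not for all. Replacing the TMM scaling of library sizes by library totals or upper quartiles moved the median log2 fold change of all genes to -0.47 or -0.55, from -0.08 with TMM. Small differences are therefore to be read relative to that shift. Among named genes, the calls of MBD4, PARP1, TCF7, SMAD3, ACVR1B, ACVR2A, CCND1 and GNAS were lost under both of those scalings. The same held for the CDKO stage calls of GSC, CER1, LEFTY1, GADD45B, BAMBI, SMAD7, MTRNR2L12 and ABCA1. The strand setting of the counting is not given, so counts of genes that share exons with a neighbour are uncertain. Among the genes described below these include LEF1, EVX1, HOXA11, HOXA13, TWIST1, HAND2, WLS, TM4SF1, LAMB1, SPARC, POU5F1, FOXD3 and IDO1 on the opposite strand, and LEFTY1, LEFTY2, TRIM4, COL3A1, MTRNR2L13, HOXD10 and HLA-C on the same strand. Genes with named pseudogenes, the ribosomal protein genes above all, are uncertain as well, because the aligner and counter are not given.

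TET1 (ENSG00000138336, GRCh38 chromosome 10, 68560656 to 68694482, plus strand) itself had 325, 356 and 304 CPM in CDKO iMeLC, against 375, 396 and 335 CPM in CDKO hESC. The 2 groups overlapped, and the fall of TET1 did not pass the threshold (log2 fold change -0.17, SE 0.09, adjusted p = 0.133), although it passed in 10 of 25 alternative settings. Because the tables hold 1 count per gene, with the catalytic exons not told apart from the rest, these values are no check of the knockout. TET3, a TET dioxygenase known from the zygote, had 79.7, 75.3 and 75.9 CPM in CDKO iMeLC, against 123, 114 and 123 CPM in CDKO hESC, a fall in every library (log2 fold change -0.64, SE 0.10, adjusted p = 8.22e-05). TET2, a dioxygenase of the same family that lacks the DNA-binding domain of TET1, had 13.4, 10.5 and 13.2 CPM in CDKO iMeLC, against 19.4, 18.4 and 18.4 CPM in CDKO hESC, again without overlap (log2 fold change -0.59, SE 0.17, adjusted p = 0.0101).

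Across the 20262 genes tested, 6510 (32.1%) rose and 5603 (27.7%) fell in CDKO iMeLC at an adjusted p under 0.05 (edgeR quasi-likelihood test with Benjamini-Hochberg adjustment, here and below). At 2-fold or more, 3453 genes (17.0%) rose and 3466 (17.1%) fell. The values of the CDKO iMeLC and CDKO hESC libraries did not overlap for 14319 genes (70.7%). Long non-coding genes fell more often, with 40.8% lower and 4.77% higher among 4107 tested and a median log2 fold change of -0.94. Protein-coding genes had a median of 0.16, with 40.3% higher and 23.7% lower among 15478. Their difference also went with expression level. Those with a mean under 1 CPM in the CDKO groups had a median of -0.93, with 29.7% lower and 6.27% higher among 2218. At 16 to 64 CPM the median was 0.38. The part of expression level in the falls of long non-coding and other low-expressed genes was not tested. Among protein-coding genes the difference went with the number of exons, with a median of -0.56 for genes of 1 exon and 0.47 for genes of 21 or more. The CTRL libraries had the same gradient, with medians of -0.44 and 0.44, and its part in the differences below was not tested. The shares of all genes that rose (32.1%) and fell (27.7%) are the background of every list count below. The gradient over exons is plotted below.

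**Figure D1:**
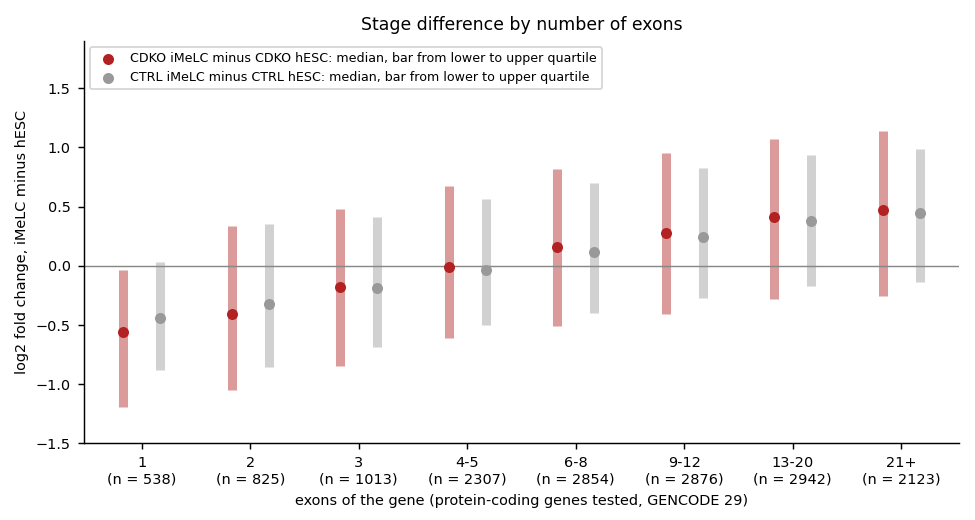
Median log2 fold change of protein-coding genes (y axis; points, with bars from the lower to the upper quartile) by the number of annotated exons (x axis) in CDKO (red) and CTRL lines (grey). In CDKO lines the median is -0.56 for single-exon genes and 0.47 for genes with 21 or more exons, and the CTRL medians of -0.44 and 0.44 lie close by.

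The iMeLC markers separated the stages. Of the 8 markers 7 rose and none fell, against 32.1% rising and 27.7% falling over all genes, with a median log2 fold change of 3.44 (4.08 in CTRL). TBXT (ENSG00000164458, GRCh38 chromosome 6, 166157656 to 166168700, minus strand), the T-box factor of nascent mesoderm, had 72.5, 75.9 and 30.0 CPM in CDKO iMeLC, against 1.01, 2.87 and 5.33 CPM in CDKO hESC (log2 fold change 4.23, SE 0.81, adjusted p = 0.000591). Each CDKO iMeLC library was above each CDKO hESC library. MIXL1, a homeobox factor of the streak, had 196, 251 and 147 CPM in CDKO iMeLC, against 3.9, 8.27 and 33.4 CPM in CDKO hESC (log2 fold change 3.68, SE 0.89, adjusted p = 0.00321). EOMES, the T-box factor needed for endoderm and early mesoderm, had 164, 168 and 126 CPM in CDKO iMeLC, against 4.91, 7.59 and 36.5 CPM in CDKO hESC (log2 fold change 3.21, SE 0.85, adjusted p = 0.00568). For both, CDKO hESC 3 was the highest of the hESC libraries and lay below every iMeLC library. SP5 had 161, 199 and 154 CPM in CDKO iMeLC, against 3.76, 8.32 and 21.6 CPM in CDKO hESC (log2 fold change 3.91, SE 0.56, adjusted p = 5.87e-05). LEF1, the DNA-binding partner of beta-catenin, had 21.5, 29.2 and 12.4 CPM in CDKO iMeLC, against 1.73, 1.75 and 1.38 CPM in CDKO hESC, with the hESC libraries close together (log2 fold change 3.70, SE 0.53, adjusted p = 5.6e-05). NODAL, the ligand of the SMAD2 and SMAD3 pathway, had 419, 451 and 384 CPM in CDKO iMeLC, against 46, 60.0 and 84.1 CPM in CDKO hESC (log2 fold change 2.72, SE 0.32, adjusted p = 8.2e-06).

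GSC and MESP1 behaved differently from these. GSC, a homeobox factor of the anterior streak, had 50.1, 46.4 and 56 CPM in CDKO iMeLC, against 2.24, 3.26 and 24.8 CPM in CDKO hESC, with CDKO hESC 3 far above the other CDKO hESC libraries (log2 fold change 2.31, SE 0.92, adjusted p = 0.0444). The GSC call was lost in 13 of 25 alternative settings, with an adjusted p of up to 0.132, and without CDKO hESC 3 the log2 fold change was 4.18 (adjusted p = 0.00407). MESP1, a marker of mesoderm leaving the streak, stayed under 1 CPM in all 6 libraries, at 0.579, 0.316 and 0.55 CPM in CDKO iMeLC, against 0.722, 0.292 and 0.359 CPM in CDKO hESC (log2 fold change 0.11, SE 0.71, adjusted p = 0.904). Its direction turned under 8 of 24 alternatives and no call is made for it.

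**Figure D2:**
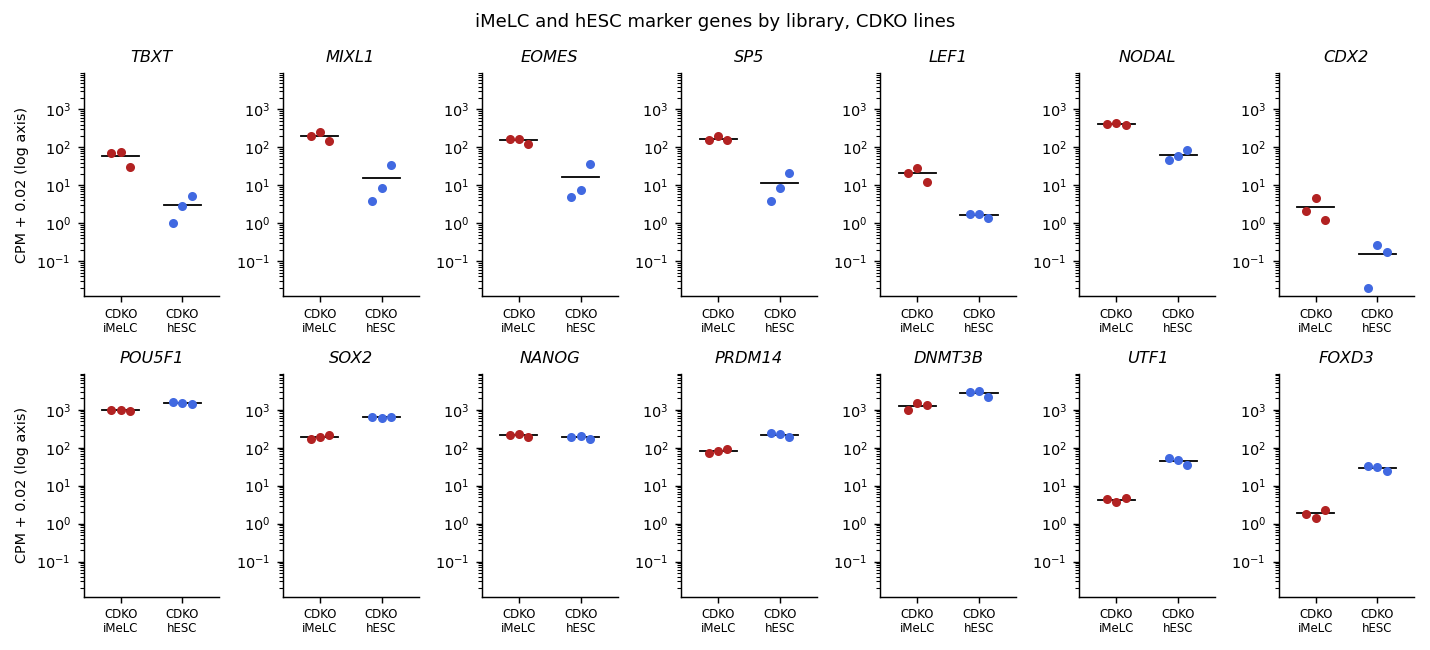
CPM plus 0.02 (log axis) of 7 iMeLC or streak markers (top) and 7 stem cell markers (bottom) in each CDKO iMeLC (red) and CDKO hESC (blue) library, with lines at group means. TBXT, MIXL1, EOMES, SP5, LEF1, NODAL and CDX2 lie higher in all 3 CDKO iMeLC libraries, while SOX2, UTF1 and FOXD3 lie lower and NANOG overlaps.

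The wider primitive streak and mesendoderm list had 15 of 16 members tested, MESP2 being too low. Of these 8 rose (53.3%) and 3 fell (20%), with a median of 1.80, and without CDKO hESC 3 the counts were 9 and 2 and the median 3.04. In 1 of the 15 no CDKO iMeLC library reached the level of the filter on low counts, and in 1 no CDKO hESC library did. Such genes passed through other libraries, so the count is no support of its own. CDX2, a caudal-type homeobox factor of the posterior axis, had 2.07, 4.69 and 1.2 CPM in CDKO iMeLC, against 0, 0.243 and 0.154 CPM in CDKO hESC (log2 fold change 4.17, SE 0.79, adjusted p = 0.000543). CDX1, its paralogue, had 2.29, 4.71 and 1.45 CPM in CDKO iMeLC, against 0.0722, 0.389 and 0.359 CPM in CDKO hESC (log2 fold change 3.28, SE 0.59, adjusted p = 0.000374). EVX1, a posterior streak homeobox factor and BMP responder, had 10.6, 10.8 and 3.2 CPM in CDKO iMeLC, against 0.217, 0.243 and 1.13 CPM in CDKO hESC (log2 fold change 3.90, SE 0.90, adjusted p = 0.00231). These posterior genes rose in all 3 CDKO iMeLC libraries, whereas the third member of the CDX family, under 1 CPM in every CDKO library, fell. CDX4 had 0.0445, 0.0527 and 0.116 CPM in CDKO iMeLC, against 0.794, 0.876 and 0.41 CPM in CDKO hESC (log2 fold change -3.20, SE 0.55, adjusted p = 0.000272). NKX1-2, a homeobox gene of the caudal epiblast, had 249, 278 and 193 CPM in CDKO iMeLC, against 66.1, 65.5 and 74.7 CPM in CDKO hESC (log2 fold change 1.80, SE 0.26, adjusted p = 6.53e-05).

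Other streak genes fell or did not pass. FOXH1, the forkhead partner of SMAD2 that is already present in stem cells, had 82.9, 106 and 83.2 CPM in CDKO iMeLC, against 163, 186 and 198 CPM in CDKO hESC (log2 fold change -1.01, SE 0.17, adjusted p = 0.000248). TBX6, a T-box factor of paraxial mesoderm, had 1.02, 1.34 and 0.969 CPM in CDKO iMeLC, against 1.95, 3.11 and 5.28 CPM in CDKO hESC (log2 fold change -1.64, SE 0.48, adjusted p = 0.0107), and without CDKO hESC 3 the TBX6 call was lost (log2 fold change -1.20, adjusted p = 0.0684). Both genes were lower in all 3 CDKO iMeLC libraries. FGF17 had 60.1, 48 and 99.1 CPM in CDKO iMeLC, against 4.26, 6.71 and 71.5 CPM in CDKO hESC, with CDKO hESC 3 inside the iMeLC range (log2 fold change 1.32, SE 0.99, adjusted p = 0.264). Without that library the log2 fold change of FGF17 was 3.63 (adjusted p = 0.00991). LHX1 and APLNR, a homeobox factor and the apelin receptor of early mesoderm, did not pass, with log2 fold changes of 1.04 (adjusted p = 0.429) and 1.33 (adjusted p = 0.283).

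WNT target genes were mostly higher in CDKO iMeLC. Of 18 tested, 13 rose (72.2%) and 1 fell (5.56%), with a median log2 fold change of 1.32 against 0.58 in CTRL. No member passed the test of a difference between genotypes described below. The number that rose was 10 with RLE size factors and 8 under library totals or upper quartile scaling. DKK1 had 18, 17.9 and 26.2 CPM in CDKO iMeLC, against 0.289, 0.584 and 4.05 CPM in CDKO hESC (log2 fold change 3.61, SE 0.93, adjusted p = 0.00479). LGR5, the R-spondin receptor, had 15.3, 9.44 and 26.6 CPM in CDKO iMeLC, against 0.144, 0.778 and 4.15 CPM in CDKO hESC (log2 fold change 3.29, SE 0.91, adjusted p = 0.00756). RNF43, a ubiquitin ligase that removes Frizzled receptors, had 6.15, 7.93 and 8.03 CPM in CDKO iMeLC, against 1.08, 1.46 and 2.2 CPM in CDKO hESC (log2 fold change 2.20, SE 0.32, adjusted p = 6.15e-05). These feedback genes had no overlap between stages, with CDKO hESC 3 the highest hESC library for each.

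NKD1, an inhibitor of Dishevelled, had 65.7, 63.2 and 56.7 CPM in CDKO iMeLC, against 15.7, 17 and 21.8 CPM in CDKO hESC (log2 fold change 1.76, SE 0.31, adjusted p = 0.000291). APCDD1, a membrane inhibitor of WNT reception, had 31.2, 24.9 and 16.7 CPM in CDKO iMeLC, against 2.38, 1.95 and 6.3 CPM in CDKO hESC (log2 fold change 2.76, SE 0.58, adjusted p = 0.00119), and TNFRSF19, another WNT-responsive receptor, had a log2 fold change of 2.02 (adjusted p = 0.00174). AXIN2, the classical feedback target, moved much less, at 154, 172 and 134 CPM in CDKO iMeLC, against 115, 118 and 109.8 CPM in CDKO hESC (log2 fold change 0.42, SE 0.16, adjusted p = 0.0395). The AXIN2 call was lost in 15 of 24 alternatives, its sign turned under upper quartile scaling, and without CDKO hESC 3 its adjusted p was 0.106. ZNRF3, the relative of RNF43, and BAMBI, a decoy receptor, rose by 0.25 and 0.67 on the log2 scale, calls lost in 11 of 25 and 15 of 25 alternatives, and ZNRF3 was called lower under upper quartile scaling. Without CDKO hESC 3 the adjusted p of BAMBI was 0.0925. CCND1, which drives entry into the cell cycle, had 832, 868 and 724 CPM in CDKO iMeLC, against 409, 421 and 489 CPM in CDKO hESC (log2 fold change 0.88, SE 0.26, adjusted p = 0.0113), with 6 of 25 alternatives losing the call.

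NKD2, the paralogue of NKD1, fell, at 2.98, 3.88 and 3.5 CPM in CDKO iMeLC, against 6.07, 6.86 and 7.99 CPM in CDKO hESC (log2 fold change -1.01, SE 0.28, adjusted p = 0.00718). SP8, NOTUM, DKK4 and 1 other member did not pass. DKK4, a secreted WNT inhibitor, had 9.73, 10.3 and 12.4 CPM in CDKO iMeLC, against 0.578, 0.827 and 3.28 CPM in CDKO hESC (log2 fold change 2.75, SE 1.15, adjusted p = 0.0544) and passed in 7 of 25 alternatives. Without CDKO hESC 3 the log2 fold change of DKK4 was 3.91 (adjusted p = 0.0446). The transcription factor TCF7 rose (log2 fold change 0.54, SE 0.11, adjusted p = 0.000907).

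Genes for WNT ligands, receptors and secretion were called about as often as all genes. Of 38 tested 11 rose (28.9%) and 9 fell (23.7%), against 32.1% and 27.7% of all genes, with a median of 0.02 whose sign turned negative under RLE, library totals, upper quartile scaling, DESeq2 and protein-coding genes alone. WLS, the carrier that exports WNT proteins, had 72.1, 63.3 and 62 CPM in CDKO iMeLC, against 0.0722, 1.41 and 2.82 CPM in CDKO hESC (log2 fold change 5.43, SE 0.57, adjusted p = 3.05e-06), among the 15 largest rises described below. WNT10B, a canonical ligand, had 15.4, 14.2 and 11.5 CPM in CDKO iMeLC, against 0.65, 0.73 and 1.08 CPM in CDKO hESC (log2 fold change 4.05, SE 0.40, adjusted p = 1.83e-06), and the co-receptor LRP5 had 102, 114 and 118 CPM in CDKO iMeLC, against 27.2, 29.3 and 29.3 CPM in CDKO hESC (log2 fold change 1.96, SE 0.10, adjusted p = 5.43e-09). The secreted antagonist SFRP1 went the other way, at 49.3, 30.6 and 76.9 CPM in CDKO iMeLC, against 208, 166 and 263 CPM in CDKO hESC (log2 fold change -2.02, SE 0.31, adjusted p = 0.000103). SFRP5 and WNT8B, an antagonist and a neural ligand, also fell, with log2 fold changes of -2.12 (adjusted p = 7.89e-06) and -3.03 (adjusted p = 6.88e-05).

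In the NODAL and activin pathway 11 of 20 genes tested rose (55%) and 5 fell (25%), with a median of 0.61. Under library totals or upper quartile scaling 5 rose and 7 fell. Ligands and secreted inhibitors come first. LEFTY2, a secreted NODAL inhibitor, had 229.6, 226 and 271 CPM in CDKO iMeLC, against 35.9, 45.8 and 125 CPM in CDKO hESC (log2 fold change 1.81, SE 0.49, adjusted p = 0.00649), and its neighbour LEFTY1 had 45.5, 59.6 and 76.7 CPM in CDKO iMeLC, against 16.1, 19.2 and 37.7 CPM in CDKO hESC (log2 fold change 1.31, SE 0.46, adjusted p = 0.0254), a call lost in 9 of 24 alternatives. CER1, a secreted inhibitor of NODAL, BMP and WNT, had 848, 565 and 1234 CPM in CDKO iMeLC, against 31, 43.6 and 358 CPM in CDKO hESC (log2 fold change 2.61, SE 0.96, adjusted p = 0.0318). The CER1 call was lost in 9 of 25 alternatives (adjusted p up to 0.0983), and without CDKO hESC 3 the log2 fold change was 4.55. FST, the activin-binding protein follistatin, had 237, 264 and 237 CPM in CDKO iMeLC, against 19.2, 26.1 and 45.3 CPM in CDKO hESC (log2 fold change 3.02, SE 0.34, adjusted p = 6.01e-06). INHBB, an activin subunit gene, had 38.3, 39.2 and 20.5 CPM in CDKO iMeLC, against 3.47, 3.65 and 5.69 CPM in CDKO hESC (log2 fold change 2.93, SE 0.46, adjusted p = 0.000115), whereas INHBA overlapped (log2 fold change 0.67, SE 0.48, adjusted p = 0.236).

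Receptors and mediators moved in both directions. ACVR2B, the activin receptor, had 283, 299.9 and 281 CPM in CDKO iMeLC, against 572, 521 and 569.8 CPM in CDKO hESC (log2 fold change -0.94, SE 0.07, adjusted p = 1.59e-07), while ACVR2A and ACVR1B rose by 0.47 and 0.54 on the log2 scale. TDGF1, the NODAL co-receptor, had 487, 457 and 386 CPM in CDKO iMeLC, against 757, 737 and 817 CPM in CDKO hESC (log2 fold change -0.80, SE 0.14, adjusted p = 0.000366). SMAD3 rose (log2 fold change 0.77, SE 0.18, adjusted p = 0.00253), and SMAD4, the common mediator, fell (log2 fold change -0.62, SE 0.09, adjusted p = 8.56e-05). SKIL, a SMAD corepressor, fell (log2 fold change -0.74, SE 0.10, adjusted p = 4.34e-05), and SMAD7, an inhibitory SMAD, rose by 0.86 with the call lost in 15 of 25 alternatives. Without CDKO hESC 3 the adjusted p of SMAD7 was 0.0643. ACVR1C, a NODAL receptor, did not pass, at a log2 fold change of -0.91 (adjusted p = 0.0745).

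Among 23 BMP pathway genes 12 rose (52.2%) and 5 fell (21.7%), with a median of 0.67, which was 0.33 after subtraction of the median of genes with as many exons. Under library totals 10 rose and 6 fell with a median of 0.28, and under upper quartile scaling 9 rose and 8 fell with a median of 0.20. NOG, the BMP antagonist noggin, had 21.4, 10.6 and 37.7 CPM in CDKO iMeLC, against 0.65, 0.438 and 1.13 CPM in CDKO hESC (log2 fold change 4.96, SE 0.65, adjusted p = 2.53e-05). MSX1, a BMP-responsive homeobox gene, had 4.76, 3.49 and 7.94 CPM in CDKO iMeLC, against 0.144, 0.341 and 0.205 CPM in CDKO hESC (log2 fold change 4.49, SE 0.67, adjusted p = 8.01e-05). The receptor genes BMPR1A, BMPR1B and BMPR2 rose together, by 0.75, 2.66 and 1.18 on the log2 scale (adjusted p = 2.38e-06, 1.26e-05 and 2.68e-05). SMAD1, which transmits the BMP signal, had 29.8, 38 and 30.5 CPM in CDKO iMeLC, against 18, 17.7 and 14.4 CPM in CDKO hESC (log2 fold change 0.98, SE 0.15, adjusted p = 9.6e-05).

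Of 22 FGF and ERK feedback genes 6 rose (27.3%), below the 32.1% of all genes, and 1 fell (4.55%), and the median of 0.25 turned negative under library totals, upper quartile scaling and protein-coding genes alone. FGF8, a ligand made by the streak, had 67.7, 87.5 and 72.1 CPM in CDKO iMeLC, against 5.2, 6.62 and 7.43 CPM in CDKO hESC (log2 fold change 3.55, SE 0.51, adjusted p = 5.33e-05). FGF18 had 12.2, 15.8 and 10.4 CPM in CDKO iMeLC, against 0.578, 0.632 and 1.18 CPM in CDKO hESC (log2 fold change 3.98, SE 0.67, adjusted p = 0.000204). The ERK phosphatases DUSP4 and DUSP5 rose by 1.87 and 1.18 on the log2 scale (adjusted p = 0.00487 and 0.0034). FGFR4, a receptor of stem cells, was the gene that fell, at 33.3, 32.1 and 33.9 CPM in CDKO iMeLC, against 51, 48.4 and 48.2 CPM in CDKO hESC (log2 fold change -0.57, SE 0.15, adjusted p = 0.00637).

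Definitive endoderm genes showed how much CDKO hESC 3 mattered. Of 14 tested 5 rose (35.7%), near the 32.1% of all genes, and 1 fell (7.14%), with a median of 1.20, and without that library 8 rose and 1 fell with a median of 3.25. GATA4, a zinc finger factor of endoderm and heart, had 36.7, 30.3 and 52 CPM in CDKO iMeLC, against 1.08, 1.07 and 9.79 CPM in CDKO hESC (log2 fold change 3.29, SE 0.77, adjusted p = 0.00261). CXCR4, the chemokine receptor used to sort endoderm, had 39.9, 24.1 and 56.2 CPM in CDKO iMeLC, against 1.88, 1.75 and 15.7 CPM in CDKO hESC (log2 fold change 2.61, SE 0.72, adjusted p = 0.00732). HNF4A, a nuclear receptor of gut endoderm, rose by 2.87 on the log2 scale (adjusted p = 0.0139), the call being lost without CDKO hESC 2 or without the CDKO1312 iMeLC library. FOXA3 fell (log2 fold change -1.07, SE 0.14, adjusted p = 2.89e-05).

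SOX17 and GATA6, endoderm and germ cell regulators, are given with their values although they were picked after those values were seen. SOX17 had 40.5, 29 and 69.6 CPM in CDKO iMeLC, against 4.41, 4.52 and 54.8 CPM in CDKO hESC, with CDKO hESC 3 at the level of the iMeLC libraries (log2 fold change 1.12, SE 0.94, adjusted p = 0.32). GATA6 had 71.4, 51.8 and 121 CPM in CDKO iMeLC, against 1.81, 3.7 and 39.8 CPM in CDKO hESC (log2 fold change 2.41, SE 1.09, adjusted p = 0.073). Without CDKO hESC 3 the log2 fold changes were 3.37 for SOX17 (adjusted p = 0.00983) and 4.84 for GATA6 (adjusted p = 0.00595). Among called genes, in groups averaging at least 5 CPM, the 6 with the widest spread of log2 CPM within a group were CST1, CER1, GSC, FOXQ1, CXCR4 and COLEC12, and in each CDKO hESC 3 was the highest hESC library. CST1, a secreted cystatin, had 90.9, 48.2 and 153 CPM in CDKO iMeLC, against 0.939, 0.778 and 20.8 CPM in CDKO hESC (log2 fold change 3.67, SE 1.06, adjusted p = 0.00973). FOXQ1, a forkhead factor, had 82.6, 59.2 and 152 CPM in CDKO iMeLC, against 1.81, 2.63 and 19.8 CPM in CDKO hESC (log2 fold change 3.57, SE 0.99, adjusted p = 0.00753), and COLEC12, a scavenger receptor, had 70.1, 46.4 and 68.4 CPM in CDKO iMeLC, against 3.47, 3.89 and 25.1 CPM in CDKO hESC (log2 fold change 2.49, SE 0.62, adjusted p = 0.00395). Leaving out that library is the only check made of its part in these values.

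**Figure D3:**
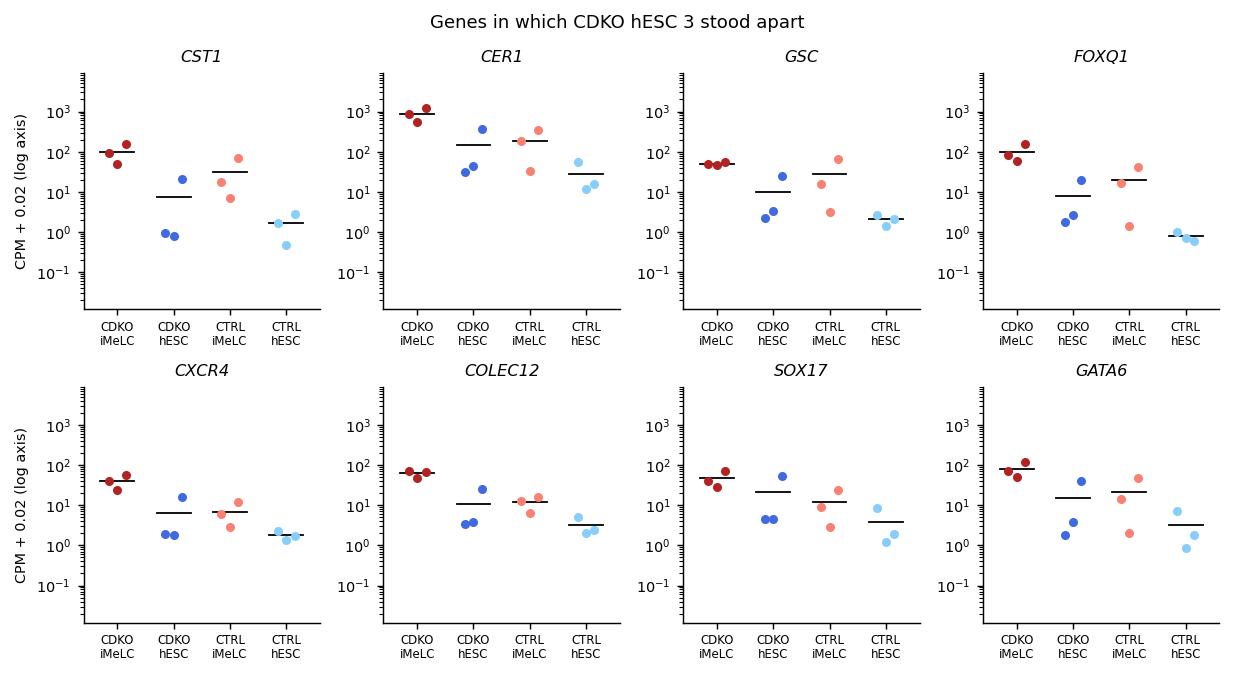
CPM plus 0.02 (log axis) of 8 genes in CDKO iMeLC (red), CDKO hESC (blue), CTRL iMeLC (salmon) and CTRL hESC (light blue), with lines at group means. CDKO hESC 3 is the highest CDKO hESC library in each, for SOX17 within the range of the CDKO iMeLC libraries.

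Later mesoderm genes had 15 of 18 members tested, of which 7 rose (46.7%) and 1 fell (6.67%), with a median of 1.33. HAND2, a bHLH factor of heart and limb mesoderm, had 4.28, 4.44 and 2.49 CPM in CDKO iMeLC, against 0.144, 0.438 and 0.256 CPM in CDKO hESC (log2 fold change 3.67, SE 0.67, adjusted p = 0.000439). TWIST1, a bHLH factor of mesenchyme, had 17.5, 14.6 and 8.03 CPM in CDKO iMeLC, against 2.89, 1.8 and 2.97 CPM in CDKO hESC (log2 fold change 2.39, SE 0.49, adjusted p = 0.000948). PDGFRB and FOXC1, a growth factor receptor and a forkhead factor of paraxial mesoderm, rose by 1.94 and 2.02 on the log2 scale (adjusted p = 0.000421 and 0.00252). KDR, the VEGF receptor, had 242, 246 and 174 CPM in CDKO iMeLC, against 129, 117 and 119.7 CPM in CDKO hESC (log2 fold change 0.85, SE 0.13, adjusted p = 8.72e-05), and OSR1, a factor of intermediate mesoderm, rose by 1.49 (adjusted p = 0.00169).

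HOX genes, which pattern the body axis, were low at both stages. Summed over all 39 members they reached 57.8, 51.2 and 36 CPM in the CDKO iMeLC libraries, against 8.96, 10.8 and 11.7 CPM in the CDKO hESC libraries. Of 39 members 26 passed the filter on low counts, and 19 of these rose and none fell, but in 21 of the 26 not all CDKO hESC libraries reached the level of that filter, so this count is no support of its own. HOXB9 had 3.94, 2.44 and 1.84 CPM in CDKO iMeLC, against 0.144, 0.146 and 0.154 CPM in CDKO hESC (log2 fold change 4.18, SE 0.90, adjusted p = 0.00145), and HOXA11 had 1.83, 1.84 and 1.33 CPM in CDKO iMeLC, against 0.0722, 0.0973 and 0.0512 CPM in CDKO hESC (log2 fold change 4.44, SE 0.97, adjusted p = 0.00155). HOXD10 and HOXB7 rose by 2.93 and 3.43 on the log2 scale (adjusted p = 0.00126 and 0.00135). For HOXA13 the 3 CDKO hESC libraries held 3 counts in all, against 150 in CDKO iMeLC, a ratio of 14.2 with a 95% counting interval of 4.76 to 69.6.

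Genes of the mesenchymal transition were higher in CDKO iMeLC. Of 20 tested 16 rose (80%) and none fell, with a median of 1.82, and the sum over the list was 4290 to 4840 CPM in CDKO iMeLC against 674 to 717 CPM in CDKO hESC. CDH2, N-cadherin, had 366, 301 and 405 CPM in CDKO iMeLC, against 20.8, 21.8 and 41.3 CPM in CDKO hESC (log2 fold change 3.67, SE 0.32, adjusted p = 5.16e-07). FN1, fibronectin, had 1048, 821 and 1089.6 CPM in CDKO iMeLC, against 150.1, 142 and 142 CPM in CDKO hESC (log2 fold change 2.77, SE 0.21, adjusted p = 1.34e-07). PRRX1, a homeobox factor of mesenchyme, had 47, 46.9 and 25.3 CPM in CDKO iMeLC, against 1.3, 2.58 and 2.2 CPM in CDKO hESC (log2 fold change 4.26, SE 0.53, adjusted p = 1.68e-05), and the gelatinase MMP2 had 304, 241 and 188 CPM in CDKO iMeLC, against 21.3, 22.4 and 25.8 CPM in CDKO hESC (log2 fold change 3.40, SE 0.32, adjusted p = 1.1e-06). The fibronectin receptor subunit ITGA5 rose by 1.68 and SPARC, a matrix glycoprotein, by 1.71 (adjusted p = 6.91e-06 and 3.55e-07).

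Collagens and laminins, the building blocks of basement membrane and matrix, followed, with 21 of 28 higher (75%) and 2 lower (7.14%) and a median of 1.49. After subtraction of the median of genes with as many exons the median was 1.02. COL3A1 had 166, 115 and 79.9 CPM in CDKO iMeLC, against 3.54, 3.6 and 3.07 CPM in CDKO hESC (log2 fold change 5.14, SE 0.62, adjusted p = 1.15e-05). COL4A1 and COL4A2, the neighbouring type IV chains of basement membrane, had log2 fold changes of 2.39 and 1.87 (adjusted p = 4.61e-07 and 3.96e-07). COL18A1 had 1004, 1021 and 1189.6 CPM in CDKO iMeLC, against 181, 173 and 219 CPM in CDKO hESC (log2 fold change 2.49, SE 0.24, adjusted p = 1.48e-06). LAMB1 and COL5A2 rose by 1.67 and 2.82 (adjusted p = 8.6e-08 and 1.54e-06).

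Fibroblast markers were read as a check for another cell type. Of 15 tested 13 rose (86.7%) and 1 fell (6.67%), with a median of 2.11 and summed levels of 1480 to 1680 CPM in CDKO iMeLC against 662 to 801 CPM in CDKO hESC. Many of these genes are matrix genes of the lists above. FAP was too low to test and MMP1 had group means under 0.5 CPM, while S100A4 had 13.9, 15.8 and 9.3 CPM in CDKO iMeLC, against 0.506, 0.632 and 0.461 CPM in CDKO hESC (log2 fold change 4.60, SE 0.61, adjusted p = 2.92e-05) and POSTN, periostin, had 4.48, 3.98 and 3.47 CPM in CDKO iMeLC, against 0.289, 0.438 and 0.256 CPM in CDKO hESC (log2 fold change 3.57, SE 0.35, adjusted p = 1.68e-06). THY1, which stem cells also express, fell, at 126, 149 and 160.5 CPM in CDKO iMeLC, against 391, 355 and 285 CPM in CDKO hESC (log2 fold change -1.24, SE 0.19, adjusted p = 0.000103). Of 12 blood and endothelial markers 3 rose (25%) and 2 fell (16.7%), with 4 and 5 lower under library totals and upper quartile scaling. Their median was -0.62, and 0.13 with thinned iMeLC counts. In 3 of the 12 no CDKO iMeLC library reached the level of the filter on low counts. The defining markers PECAM1, CDH5, TAL1, GATA1, PTPRC and SPI1 had group means under 0.5 CPM at both stages. TEK and RUNX1, 2 of the 3 that rose, did so by 2.37 and 2.34 (adjusted p = 4.42e-06 and 0.00157). The part of other cell types in these values was not tested.

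Epithelial genes were called about as often as all genes. Of 29 tested 11 rose (37.9%) and 8 fell (27.6%), against 32.1% and 27.7% of all genes, and under library totals 6 rose and 12 fell. The median of 0.13 turned negative under library totals, upper quartile scaling and thinned counts, and after subtraction of the exon median. KRT8, a keratin of simple epithelia, had 1396, 1295 and 1890.0 CPM in CDKO iMeLC, against 397, 409 and 516 CPM in CDKO hESC (log2 fold change 1.79, SE 0.22, adjusted p = 1.27e-05). OCLN and PKP2, of tight junctions and desmosomes, rose by 1.44 and 1.49, and DSP, desmoplakin, by 0.90 (adjusted p = 5.78e-06, 1.31e-06 and 0.000202). CLDN3, a tight junction claudin, fell, at 5.63, 4.3 and 6.6 CPM in CDKO iMeLC, against 32.5, 23.1 and 24.3 CPM in CDKO hESC (log2 fold change -2.27, SE 0.32, adjusted p = 4.29e-05). PKP3 is described with the comparison of genotypes.

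Stem cell markers were lower in CDKO iMeLC. Of 14 hESC markers 12 fell (85.7%) and none rose, with a median of -0.75 (-0.68 in CTRL), and the core pluripotency list had 14 of 18 lower (77.8%) and none higher with a median of -0.69. POU5F1, the factor OCT4, had 1011, 993 and 926 CPM in CDKO iMeLC, against 1614, 1528 and 1459.8 CPM in CDKO hESC (log2 fold change -0.65, SE 0.09, adjusted p = 2.95e-05). SOX2, its partner, had 167, 195 and 215 CPM in CDKO iMeLC, against 643, 621 and 652 CPM in CDKO hESC (log2 fold change -1.73, SE 0.26, adjusted p = 7.61e-05), a larger fall. NANOG, the homeobox factor of the same network, overlapped between stages at 214, 232 and 188 CPM in CDKO iMeLC, against 191, 201 and 166 CPM in CDKO hESC (log2 fold change 0.18, SE 0.21, adjusted p = 0.471), and its sign turned under 4 of 25 alternatives. PRDM14, a transcription factor of stem cells and germ cells, had 74, 83.1 and 93.9 CPM in CDKO iMeLC, against 243, 224 and 187 CPM in CDKO hESC (log2 fold change -1.38, SE 0.22, adjusted p = 0.000135).

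Falls within the core list differed widely in size. FOXD3, a forkhead factor, had 1.83, 1.42 and 2.27 CPM in CDKO iMeLC, against 33.4, 30.4 and 24.6 CPM in CDKO hESC (log2 fold change -4.0, SE 0.21, adjusted p = 6.02e-09). UTF1, a chromatin protein of stem cells, had 4.56, 3.61 and 4.64 CPM in CDKO iMeLC, against 53.7, 48.7 and 34.5 CPM in CDKO hESC (log2 fold change -3.42, SE 0.44, adjusted p = 2.28e-05). The RNA-binding proteins LIN28A and LIN28B, the zinc finger factor SALL4, the telomere protein TERF1 and L1TD1 fell, with log2 fold changes of -0.44, -0.42, -0.73, -0.84 and -0.77 (adjusted p = 0.00467, 0.00153, 2.18e-05, 2.82e-05 and 0.000112). ESRG, a non-coding transcript of stem cells, had 1366, 1302 and 1233 CPM in CDKO iMeLC, against 2664, 2798 and 2552 CPM in CDKO hESC (log2 fold change -1.04, SE 0.17, adjusted p = 0.000203). VRTN fell (log2 fold change -0.62, SE 0.13, adjusted p = 0.00112), and DPPA4 fell (log2 fold change -0.34, SE 0.12, adjusted p = 0.0274), although the DPPA4 call was lost without CDKO hESC 2 or CDKO hESC 3. The other 4 members, NANOG, ZFP42 and DPPA2 among them, did not pass.

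Of 13 naive pluripotency genes tested 7 fell (53.8%) and 2 rose (15.4%). For 3 of the 13 no CDKO iMeLC library reached the level of the filter on low counts, so these genes passed through other libraries. The list summed to 108 to 125 CPM in CDKO iMeLC and 99.9 to 114 CPM in CDKO hESC. TFCP2L1, a naive-state factor, had 12.6, 11.5 and 10.6 CPM in CDKO iMeLC, against 22.5, 22.6 and 18.1 CPM in CDKO hESC (log2 fold change -0.86, SE 0.14, adjusted p = 0.000203). DPPA5 had 0.0891, 0.0527 and 0 CPM in CDKO iMeLC, against 1.59, 1.17 and 1.23 CPM in CDKO hESC (log2 fold change -4.84, SE 0.96, adjusted p = 0.000783), and DPPA3, which is also a germ cell gene, had 0.824, 0.342 and 0.998 CPM in CDKO iMeLC, against 3.18, 3.41 and 1.69 CPM in CDKO hESC (log2 fold change -1.94, SE 0.54, adjusted p = 0.0074). KLF5 rose, at 55.1, 47.5 and 53.5 CPM in CDKO iMeLC, against 8.23, 11.7 and 17.2 CPM in CDKO hESC (log2 fold change 2.06, SE 0.20, adjusted p = 1.28e-06). DNMT3L, a cofactor of the DNA methyltransferases picked after its values were seen, had 0.579, 0.882 and 0.637 CPM in CDKO iMeLC, against 0, 0.0486 and 0.307 CPM in CDKO hESC (log2 fold change 2.45, SE 0.80, adjusted p = 0.0183). The DNMT3L call was lost without CDKO hESC 1 or CDKO hESC 2. Of 17 primed pluripotency genes 7 fell (41.2%) and 4 rose (23.5%), with 11 lower under library totals or upper quartile scaling. SALL2 had 247, 261 and 249.8 CPM in CDKO iMeLC, against 1101.1, 1060.0 and 967 CPM in CDKO hESC (log2 fold change -2.04, SE 0.12, adjusted p = 1.33e-08), CD24, a surface glycoprotein, had 679, 727 and 615 CPM in CDKO iMeLC, against 2139.6, 2063 and 1712 CPM in CDKO hESC (log2 fold change -1.55, SE 0.18, adjusted p = 1.02e-05), and USP44, a deubiquitinase, fell, at a log2 fold change of -1.45 (adjusted p = 1.04e-07).

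Neural lineage genes, which stem cells express at low levels before commitment, fell more often than they rose. Of 21 tested 10 fell (47.6%) and 3 rose (14.3%), with a median of -1.18. For 4 of the 21 no CDKO iMeLC library reached the level of the filter on low counts, and for 1 no CDKO hESC library did. The count is therefore no support of its own. The list summed to 652 to 754 CPM in CDKO iMeLC and 660 to 692 CPM in CDKO hESC. HESX1, a forebrain homeobox factor, had 4.19, 3.01 and 5.43 CPM in CDKO iMeLC, against 23.9, 21.4 and 17.1 CPM in CDKO hESC (log2 fold change -2.30, SE 0.34, adjusted p = 7.59e-05). DCX, doublecortin, had 3.07, 3.59 and 3.52 CPM in CDKO iMeLC, against 20.4, 22.1 and 18.6 CPM in CDKO hESC (log2 fold change -2.58, SE 0.20, adjusted p = 1.9e-07), and the NOTCH ligand DLL1 had 2.45, 1.9 and 1.56 CPM in CDKO iMeLC, against 9.24, 9.73 and 13.5 CPM in CDKO hESC (log2 fold change -2.46, SE 0.48, adjusted p = 0.000668). RAX, an eye-field factor, and POU3F1, a POU factor, fell, with log2 fold changes of -4.31 and -1.41 (adjusted p = 0.000227 and 0.00187). TUBB3, a neuronal tubulin, rose, at 10.3, 12.8 and 12.9 CPM in CDKO iMeLC, against 2.31, 2.43 and 2.97 CPM in CDKO hESC (log2 fold change 2.22, SE 0.22, adjusted p = 2.17e-06). In the neural crest list 2 of 11 genes rose (18.2%), MSX1 and TFAP2A, and 2 fell (18.2%), FOXD3 and NGFR, with 5 lower under library totals or upper quartile scaling. TFAP2A, a factor of crest, amnion and early germ cells, had 6.9, 6.45 and 2.45 CPM in CDKO iMeLC, against 1.01, 1.22 and 0.717 CPM in CDKO hESC (log2 fold change 2.42, SE 0.78, adjusted p = 0.0169), a call lost without CDKO hESC 3 or without the CDKO1102 iMeLC library.

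Most genes of primordial germ cell specification did not pass. Of the 13 tested 1 rose (7.69%), CXCR4, and 3 fell (23.1%), below the 27.7% of all genes. Those that fell were UTF1, TFCP2L1 and PDPN (log2 fold change -0.51, SE 0.17, adjusted p = 0.0203). Under library totals 7 fell and under upper quartile scaling 8. PRDM1, a repressor needed for germ cell fate, had 17.4, 13.4 and 21.7 CPM in CDKO iMeLC, against 1.95, 2.58 and 14.1 CPM in CDKO hESC, with CDKO hESC 3 inside the iMeLC range (log2 fold change 1.48, SE 0.61, adjusted p = 0.0517). Without that library the log2 fold change of PRDM1 was 2.93 (adjusted p = 0.000326). Of 17 later germ cell and piRNA genes 8 fell (47.1%) and 1 rose (5.88%), with a median of -1.98. For 8 of the 17 no CDKO iMeLC library reached the level of the filter on low counts, so such a gene passed through other libraries and the count is no support of its own. The list summed to 25.8 to 45.8 CPM in CDKO iMeLC and 22.1 to 42.5 CPM in CDKO hESC. TDRD7, the gene that rose, encodes a Tudor protein of germ granules and had 26, 17.6 and 37.9 CPM in CDKO iMeLC, against 2.02, 1.99 and 3.89 CPM in CDKO hESC (log2 fold change 3.35, SE 0.35, adjusted p = 3.3e-06). PIWIL2, an Argonaute protein of the piRNA pathway, had 0.49, 0.408 and 0.289 CPM in CDKO iMeLC, against 1.52, 2.43 and 1.08 CPM in CDKO hESC (log2 fold change -2.10, SE 0.51, adjusted p = 0.00323). MOV10L1, a piRNA helicase, had 0.0445, 0.0263 and 0 CPM in CDKO iMeLC, against 0.65, 0.292 and 0.461 CPM in CDKO hESC (log2 fold change -4.25, SE 0.84, adjusted p = 0.000761).

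For the rarest of these genes counts are given in place of folds. TDRD6, a germ granule protein, had 0 counts in CDKO iMeLC and 19 in CDKO hESC, at least 22.3-fold lower against a floor of 3 counts over the group. TDRD1 had 3 counts in CDKO iMeLC and 20 in CDKO hESC, a ratio of 23.5 in favour of hESC with a 95% counting interval of 6.97 to 123. Such intervals cover counting error only. Amnion and trophectoderm genes had 1 of 13 higher (7.69%), TFAP2A, and 2 lower (15.4%), with 4 and 5 lower under library totals and upper quartile scaling. KRT7, a keratin of those tissues, was one of the 2, at 1.29, 1.17 and 1.58 CPM in CDKO iMeLC, against 6.86, 5.01 and 5.74 CPM in CDKO hESC (log2 fold change -2.12, SE 0.48, adjusted p = 0.00209).

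TET enzymes and base excision partners were called about as often as all genes. Of 19 genes 7 rose (36.8%) and 4 fell (21.1%), against 32.1% and 27.7% of all genes, with 9 and 10 lower under library totals and upper quartile scaling. The median of 0.17 turned negative under both, and after subtraction of the exon median. TDG, which excises the oxidised bases made by TET enzymes, had 122, 110.5 and 105 CPM in CDKO iMeLC, against 42.3, 40.0 and 30.3 CPM in CDKO hESC (log2 fold change 1.59, SE 0.17, adjusted p = 4.39e-06). POLB, the polymerase that fills the gap, had 30.3, 29.9 and 29.1 CPM in CDKO iMeLC, against 5.71, 5.16 and 6.92 CPM in CDKO hESC (log2 fold change 2.33, SE 0.13, adjusted p = 6.67e-09). NEIL3, a glycosylase, and GADD45A, a stress-induced adaptor, rose by 1.43 and 2.06 (adjusted p = 9.21e-07 and 3.76e-06). MBD4, PARP1 and GADD45B rose by less, at 0.57, 0.53 and 1.10, the GADD45B call being lost in 11 of 25 alternatives. APEX1, the endonuclease that cuts the abasic site, had 306, 308 and 290.0 CPM in CDKO iMeLC, against 424, 419 and 374 CPM in CDKO hESC (log2 fold change -0.43, SE 0.08, adjusted p = 0.000729). The glycosylase NEIL1 fell (log2 fold change -0.66, SE 0.26, adjusted p = 0.0414), with the call lost in 12 of 25 alternatives. Without CDKO hESC 3 the adjusted p of NEIL1 was 0.18. The other 7 members besides TET1 did not pass.

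Of 15 DNA methylation genes 5 rose (33.3%) and 8 fell (53.3%). Without CDKO hESC 3 the counts were 6 and 6. DNMT1, the maintenance methyltransferase, had 451, 463 and 453 CPM in CDKO iMeLC, against 189.8, 197 and 167 CPM in CDKO hESC (log2 fold change 1.30, SE 0.08, adjusted p = 3.09e-08). UHRF1, which brings DNMT1 to replicated DNA, had 139, 149 and 140.1 CPM in CDKO iMeLC, against 34.6, 38.5 and 28.4 CPM in CDKO hESC (log2 fold change 2.08, SE 0.19, adjusted p = 1.08e-06), and UHRF2 rose by 1.37 (adjusted p = 1.3e-06). DNMT3B, the de novo methyltransferase of primed stem cells, had 1012, 1533 and 1309 CPM in CDKO iMeLC, against 3013, 3039 and 2212 CPM in CDKO hESC (log2 fold change -1.10, SE 0.15, adjusted p = 4.65e-05). The remodeller HELLS fell, at a log2 fold change of -0.52 and the reader MBD2 rose by 1.60 (adjusted p = 7.17e-05 and 1.83e-06).

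Polycomb repressive complex 2, which methylates lysine 27 of histone H3, had 9 of 13 members higher (69.2%) and 2 lower (15.4%), with 5 and 4 higher under library totals and upper quartile scaling. EED, a core subunit, had 42.1, 41.4 and 42.4 CPM in CDKO iMeLC, against 7.44, 8.32 and 7.89 CPM in CDKO hESC (log2 fold change 2.41, SE 0.10, adjusted p = 8.76e-10). EZH2, the methyltransferase, had 96.5, 100.1 and 90.7 CPM in CDKO iMeLC, against 19.9, 25 and 22 CPM in CDKO hESC (log2 fold change 2.10, SE 0.12, adjusted p = 1.26e-08), and SUZ12 had 90.9, 92.4 and 80.7 CPM in CDKO iMeLC, against 42.8, 47.4 and 44.8 CPM in CDKO hESC (log2 fold change 0.97, SE 0.08, adjusted p = 2.47e-07). The median of 0.59 was 0.20 after subtraction of the median of genes with as many exons.

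Imprinted genes, expressed from 1 parental allele, had 6 of 23 higher (26.1%) and 8 lower (34.8%), near the 32.1% and 27.7% of all genes, and none higher and 12 lower under upper quartile scaling. NNAT, neuronatin, had 0.646, 0.948 and 0.333 CPM in CDKO iMeLC, against 7.73, 4.72 and 3.28 CPM in CDKO hESC (log2 fold change -3.0, SE 0.36, adjusted p = 9.89e-06). KCNQ1OT1, the non-coding RNA that silences its domain, had 44.1, 44.1 and 45.9 CPM in CDKO iMeLC, against 119, 119.7 and 143 CPM in CDKO hESC (log2 fold change -1.51, SE 0.15, adjusted p = 1.61e-06). L3MBTL1 and MAGEL2 fell, with log2 fold changes of -1.52 and -1.14 (adjusted p = 5.7e-05 and 0.000754). NAP1L5 had 3 counts in CDKO iMeLC and 48 in CDKO hESC, a ratio of 56.4 in favour of hESC (95% counting interval 18.2 to 283). GNAS rose (log2 fold change 0.48, SE 0.12, adjusted p = 0.00316).

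Hypoxia and glycolysis genes rose in 18 of 30 cases (60%) and fell in 2 (6.67%), with a median of 0.65, against 1.08 in CTRL. None of them passed the test of a difference between genotypes described below. LDHA, lactate dehydrogenase, had 662, 616 and 609 CPM in CDKO iMeLC, against 135, 137 and 118 CPM in CDKO hESC (log2 fold change 2.27, SE 0.15, adjusted p = 4.24e-08). PFKP, a phosphofructokinase, had 161, 166 and 176 CPM in CDKO iMeLC, against 36.8, 40.7 and 38.3 CPM in CDKO hESC (log2 fold change 2.11, SE 0.10, adjusted p = 1.87e-09). PGK1, ENO1 and P4HA1, 2 glycolytic enzymes and a collagen hydroxylase, rose by 1.45, 1.35 and 2.31 (adjusted p = 9.14e-06, 9.76e-08 and 1.56e-06). Of 25 cholesterol synthesis genes 19 rose (76%) and 3 fell (12%), with 12 and 11 higher under library totals and upper quartile scaling, and with NSDHL and FDFT1 higher by 2.0 and 1.76 (adjusted p = 5.83e-08 and 6.28e-09).

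DNA replication genes were higher in 21 of 26 cases (80.8%) and lower in 2 (7.69%), with a median of 1.07. MCM6, a subunit of the replicative helicase, had 296, 314 and 279 CPM in CDKO iMeLC, against 62.8, 70.4 and 58.2 CPM in CDKO hESC (log2 fold change 2.21, SE 0.10, adjusted p = 1.64e-09). CDC45, which activates that helicase, had 48.7, 55.9 and 53.2 CPM in CDKO iMeLC, against 9.1, 8.03 and 11.4 CPM in CDKO hESC (log2 fold change 2.47, SE 0.14, adjusted p = 1.19e-08). TYMS and RRM1, which supply nucleotides, rose by 1.93 and 1.88 (adjusted p = 5.71e-09 and 1.45e-08). Of 22 mitosis genes 14 rose (63.6%) and 3 fell (13.6%). Under upper quartile scaling 10 rose and 9 fell, and their median of 0.45 became -0.03. CDK1, the mitotic kinase, had 101, 93.4 and 92.2 CPM in CDKO iMeLC, against 25.6, 28.2 and 27.8 CPM in CDKO hESC (log2 fold change 1.81, SE 0.09, adjusted p = 2.29e-09), and DLGAP5 and UBE2C rose by 2.38 and 1.86 (adjusted p = 6.97e-10 and 3.01e-09).

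Stress and response genes were mixed. Of 20 p53 targets 11 rose (55%) and 2 fell (10%), against 7 and 3 under library totals and 4 and 4 under upper quartile scaling, with TP53I3 and the death receptor TNFRSF10B higher by 1.23 and 1.08 (adjusted p = 1.14e-06 and 1.86e-06). In the integrated stress response 6 of 20 rose (30%) and 5 fell (25%), about the 32.1% and 27.7% of all genes. The list summed to 3340 to 3690 CPM in CDKO iMeLC, against 3080 to 3370 CPM in CDKO hESC. Its median of 0.21 turned negative under library totals, upper quartile scaling and protein-coding genes alone. Under library totals 3 rose and 8 fell, and under upper quartile scaling 1 rose and 8 fell. ATF4, its central factor, had 472, 470.0 and 468 CPM in CDKO iMeLC, against 785, 728 and 799.5 CPM in CDKO hESC (log2 fold change -0.71, SE 0.11, adjusted p = 0.00011), and its targets ASNS, CHAC1 and STC2 fell, with log2 fold changes of -2.01, -1.83 and -1.29 (adjusted p = 3.02e-05, 7.34e-05 and 0.000144), while PSPH rose by 1.16 (adjusted p = 3.62e-06). Of 20 immediate early genes 9 rose (45%) and 5 fell (25%), and under upper quartile scaling 6 rose and 7 fell. FOSL1, an AP-1 subunit, had 44.2, 38.5 and 42.8 CPM in CDKO iMeLC, against 7.37, 6.81 and 7.17 CPM in CDKO hESC (log2 fold change 2.56, SE 0.16, adjusted p = 2.43e-08), EGR3 rose by 2.55 and EGR2 fell, at a log2 fold change of -1.80 (adjusted p = 4.78e-05 and 0.000908).

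Interferon and antigen presentation genes fell in 16 of 31 cases (51.6%) and rose in 3 (9.68%), with a median of -0.58. For 4 of the 31 no CDKO iMeLC library reached the level of the filter on low counts, and for 1 no CDKO hESC library did. Such genes passed through other libraries. HLA-C, a class I molecule, had 76.4, 79.1 and 86.2 CPM in CDKO iMeLC, against 179, 149 and 162 CPM in CDKO hESC (log2 fold change -1.02, SE 0.12, adjusted p = 6.37e-06). TAPBP and TAP2, which load peptides onto class I, fell, with log2 fold changes of -1.45 and -1.27 (adjusted p = 9.52e-08 and 2.67e-05). OAS3, an interferon-induced sensor of RNA, had 0.0223, 0.158 and 0.203 CPM in CDKO iMeLC, against 2.46, 2.63 and 1.59 CPM in CDKO hESC (log2 fold change -4.0, SE 0.44, adjusted p = 4.93e-06).

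Of 8 metallothioneins tested 4 rose (50%) and 3 fell (37.5%). MT2A, one of these metal-binding proteins, had 72.3, 78.3 and 61.5 CPM in CDKO iMeLC, against 16.3, 20.7 and 23.3 CPM in CDKO hESC (log2 fold change 1.81, SE 0.28, adjusted p = 0.000123), and MT1E and MT1M rose by 2.34 and 4.21 (adjusted p = 0.000706 and 3.12e-05). MT1B had 458 counts in CDKO iMeLC and 0 in CDKO hESC, at least 43.3-fold higher against a floor of 3 counts over the group. Of 13 mitochondrially encoded genes 10 rose (76.9%) and none fell, with MT-ND3 higher by 1.09 (adjusted p = 7.28e-06). Under library totals or upper quartile scaling 3 of these rose. Mitochondrial transcripts took 3.27% to 4% of counts in CDKO iMeLC and 2.92% to 3.66% in CDKO hESC.

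Of 78 cytoplasmic ribosomal protein genes 66 rose (84.6%) and 2 fell (2.56%), with sizes far apart. RPL27 had 871, 882 and 953 CPM in CDKO iMeLC, against 27.8, 34.2 and 31.6 CPM in CDKO hESC (log2 fold change 4.85, SE 0.12, adjusted p = 5.36e-11). RPL5 had 1607, 1549 and 1478 CPM in CDKO iMeLC, against 78.9, 93 and 83.7 CPM in CDKO hESC (log2 fold change 4.18, SE 0.10, adjusted p = 5.36e-11), and RPL35 and RPL31 rose by 4.04 and 3.46. At the other end RPL36A, picked after its values were seen, had 10.2, 11.4 and 12.2 CPM in CDKO iMeLC, against 11.1, 13.9 and 16.1 CPM in CDKO hESC (log2 fold change -0.28, SE 0.16, adjusted p = 0.143). In all 8 of the 78 rose by more than 8-fold, and 77 have named pseudogenes. The log2 fold changes of the 78 genes in CDKO and CTRL correlated at r = 0.988, a description across genes that share libraries within each genotype. Genes for proteins of 1 complex thus differed in their stage difference by several log2 units, and the cause was not tested. Clustered histone genes, whose transcripts lack a poly(A) tail, fell in 27 of 66 cases (40.9%) and rose in 4 (6.06%), while 49.3% of single-exon protein-coding genes fell. Their median of -0.41 was 0.13 after subtraction of the exon median, and 50 and 53 were lower under library totals and upper quartile scaling. HIST1H3C and HIST1H2BB fell, with log2 fold changes of -2.68 and -2.26, and HIST2H2AA4 rose by 2.38 (adjusted p = 2.05e-06, 1.63e-06 and 7.01e-06).

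**Figure D4:**
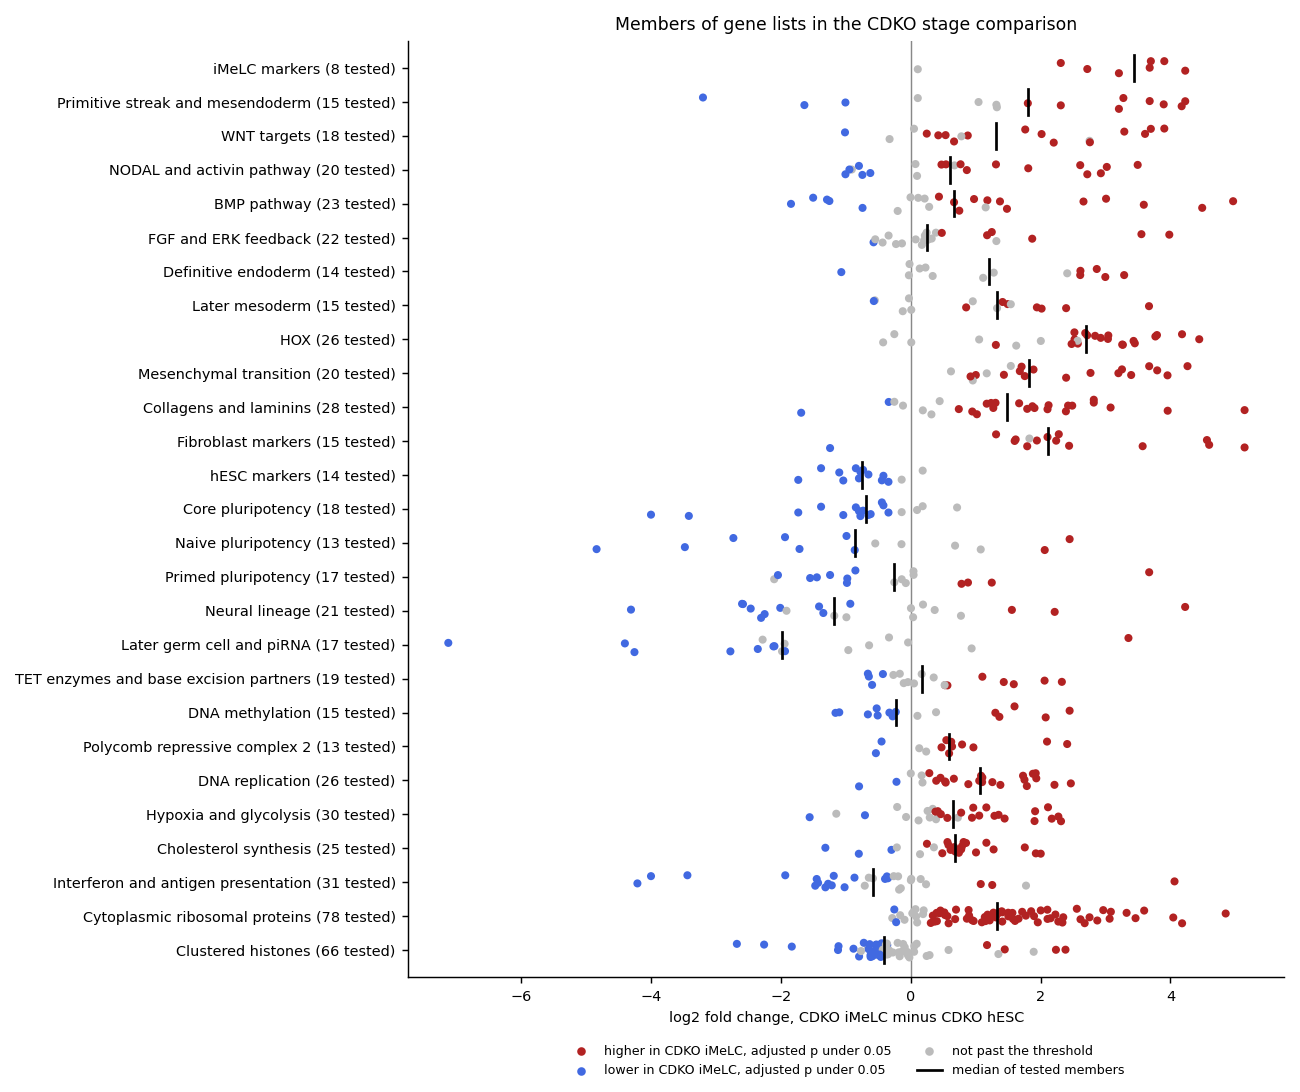
Log2 fold change, CDKO iMeLC minus CDKO hESC (x axis), of each tested member of 27 gene lists (rows); red rose, blue fell, grey did not pass, and black lines are medians. iMeLC markers and mesenchymal genes lie to the right with medians of 3.44 and 1.82, and hESC markers to the left with a median of -0.75.

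The 15 largest rises among called genes with at least 5 CPM ran from a log2 fold change of 4.96 to 7.99, with adjusted p-values of at most 2.61e-05. LGALS1, the secreted lectin galectin-1, had 155, 143 and 87.6 CPM in CDKO iMeLC, against 1.01, 1.17 and 1.33 CPM in CDKO hESC (log2 fold change 6.76, SE 0.57, adjusted p = 3.8e-07). NTS, the neuropeptide neurotensin, had 156, 189 and 218 CPM in CDKO iMeLC, against 1.59, 2.19 and 4.56 CPM in CDKO hESC (log2 fold change 6.04, SE 0.36, adjusted p = 1.43e-08). TM4SF1, a membrane protein of migrating cells, had 6.99, 12.5 and 6.92 CPM in CDKO iMeLC, against 0, 0.243 and 0.154 CPM in CDKO hESC (log2 fold change 5.90, SE 0.76, adjusted p = 2.22e-05), and ANXA3, an annexin, had 118, 89.7 and 113 CPM in CDKO iMeLC, against 3.32, 2.29 and 2.97 CPM in CDKO hESC (log2 fold change 5.24, SE 0.48, adjusted p = 9.19e-07). Each of these 4 was under 5 CPM in every CDKO hESC library. COX6C, SLIRP, SEC61G and TBCA, housekeeping genes of respiration, mitochondrial RNA, secretion and tubulin folding, rose by 5.59, 5.04, 5.31 and 5.19. COX6C had 176, 164 and 174 CPM in CDKO iMeLC, against 2.96, 3.65 and 4 CPM in CDKO hESC, and 17 named pseudogenes carry its name.

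GLIPR1L1 and TTC29 rose by 5.18 and 5.02 (adjusted p = 1.53e-06 and 2.61e-05). The remaining 5 of the 15 were WLS, COL3A1 and NOG, described above, and the humanin-like genes MTRNR2L13 and MTRNR2L10. MTRNR2L10 had 349, 352 and 219.7 CPM in CDKO iMeLC, against 6.64, 8.08 and 9.99 CPM in CDKO hESC (log2 fold change 5.21, SE 0.40, adjusted p = 1.66e-07). MTRNR2L13 had 1023 counts in CDKO iMeLC and 1 in CDKO hESC, a ratio of 290 with a 95% counting interval of 52 to 11500. All 15 also rose in CTRL, by 2.79 to 8.31 on the log2 scale, and the smallest adjusted p of their interaction with genotype was 0.208.

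The 15 largest falls ran from a log2 fold change of -5.97 to -3.90, with adjusted p-values of at most 0.000459. HES3, a repressor of the HES family, had 1.85, 1.97 and 1.55 CPM in CDKO iMeLC, against 68.4, 69.7 and 85.4 CPM in CDKO hESC (log2 fold change -5.38, SE 0.55, adjusted p = 2.64e-06). POU3F4, a neural POU factor, had 0.312, 0.079 and 0.0868 CPM in CDKO iMeLC, against 10.1, 5.84 and 7.74 CPM in CDKO hESC (log2 fold change -5.73, SE 1.03, adjusted p = 0.000374). PDE3A, a phosphodiesterase, had 0.334, 0.184 and 0.174 CPM in CDKO iMeLC, against 11.6, 10.6 and 8.35 CPM in CDKO hESC (log2 fold change -5.50, SE 0.34, adjusted p = 2.38e-08), and the serotonin receptor HTR1D had 1.43, 1.22 and 1.69 CPM in CDKO iMeLC, against 41.7, 43.7 and 41.2 CPM in CDKO hESC (log2 fold change -4.87, SE 0.78, adjusted p = 0.000146). IDO1, which degrades tryptophan, had 3.87, 3.66 and 2.31 CPM in CDKO iMeLC, against 64.8, 61.1 and 61 CPM in CDKO hESC (log2 fold change -4.25, SE 0.63, adjusted p = 7.51e-05). The epithelial sodium channel subunit SCNN1G and the adrenergic receptor ADRA1A fell, with log2 fold changes of -4.72 and -4.73.

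Long non-coding genes were among the largest falls. MIAT had 15.6, 15.8 and 14.6 CPM in CDKO iMeLC, against 223, 238 and 266 CPM in CDKO hESC (log2 fold change -3.98, SE 0.42, adjusted p = 3.37e-06), LINC00599, which hosts the microRNA gene MIR124-1, had 2.69, 3.34 and 3.37 CPM in CDKO iMeLC, against 78.7, 93.2 and 97.9 CPM in CDKO hESC (log2 fold change -4.83, SE 0.52, adjusted p = 3.88e-06), and LINC02473 fell, at a log2 fold change of -5.97 (adjusted p = 0.000459). SPTSSB, LDHD, TMEM151B and C19orf85 fell, with log2 fold changes of -4.68, -4.55, -4.01 and -3.90, and FOXD3 completed the 15. All 15 fell in CTRL as well, with log2 fold changes from -4.56 to -2.11, with an interaction adjusted p of at least 0.28.

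The same comparison in CTRL lines called 5981 genes higher (29.5%) and 4032 lower (19.9%), of which 2860 (14.1%) and 2004 (9.89%) by 2-fold or more. Of the genes tested, 8860 were called in the same direction in both genotypes and 13 in opposite directions. Across 20262 genes the log2 fold changes of CDKO and CTRL correlated at r = 0.853, and across 8387 protein-coding genes of at least 16 CPM at r = 0.964, as descriptions across genes. The test of the difference itself, the interaction of genotype and stage, called 4 genes (0.0197% of those tested), 3 with a higher difference in CDKO (0.0148%) and 1 with a lower one (0.00494%), with 2275 at an unadjusted p under 0.05 and 210 called by DESeq2. Without the CTRL1101 iMeLC library it called 439 genes, and without any one of the other 11 libraries at most 4. For genes that were not called, this does not show that the stage difference was the same in both genotypes. Among the streak genes TBXT had 51.5, 11.6 and 112 CPM in CTRL iMeLC and 2.36, 0.354 and 0.459 CPM in CTRL hESC, and its interaction did not pass (log2 -1.60, adjusted p = 0.648). The CTRL1106 library was the lowest of the CTRL iMeLC libraries for the iMeLC markers, with 334 CPM in sum, against 873 and 1050 CPM in the others.

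TRIM4 (ENSG00000146833, GRCh38 chromosome 7, 99876958 to 99919600, minus strand), a ubiquitin ligase, had the largest difference between the genotypes among the 4. It had 6.7, 8.64 and 7.77 CPM in CDKO iMeLC, against 8.67, 5.3 and 5.94 CPM in CDKO hESC, with overlap. In the control lines it had 0.0468, 0.0232 and 0.0391 CPM in CTRL iMeLC, against 6.98, 10.1 and 7.61 CPM in CTRL hESC. The interaction was 7.94 (SE 0.40, adjusted p = 1.23e-06), and it passed in all 22 alternatives. MTRNR2L12, ABCA1 and PKP3 passed with less margin, each at an adjusted p of 0.0381. Their interaction calls were lost in 11, 13 and 12 of 23 alternatives, in that order. ABCA1, a cholesterol exporter, had 33.2, 23.5 and 44.6 CPM in CDKO iMeLC, against 22.1, 19.7 and 20.03 CPM in CDKO hESC, and 11.8, 12.8 and 11.8 CPM in CTRL iMeLC, against 38.2, 26.9 and 51.6 CPM in CTRL hESC. PKP3, a desmosomal plakophilin, had 2.32, 2.57 and 2.26 CPM in CDKO iMeLC, against 4.62, 3.89 and 4.82 CPM in CDKO hESC, and 18.4, 24.3 and 18.3 CPM in CTRL iMeLC, against 10.4, 13.4 and 9.91 CPM in CTRL hESC. PKP3 thus fell in the CDKO lines (log2 fold change -0.90, SE 0.18, adjusted p = 0.000775) and rose in the CTRL lines (log2 fold change 0.85, adjusted p = 0.00083).

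**Figure D5:**
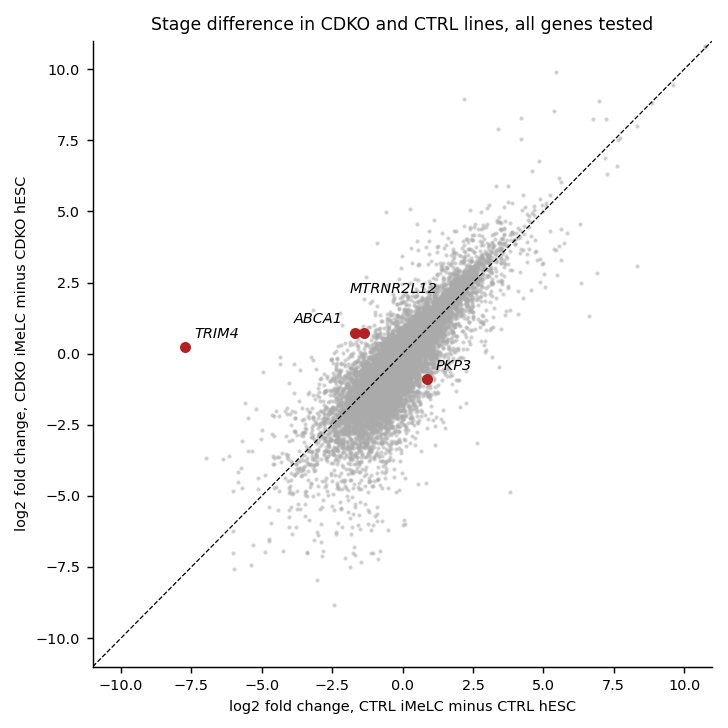
Log2 fold change, iMeLC minus hESC, of all 20262 genes tested in CDKO (y axis) against CTRL lines (x axis), with a dashed line of equality and the 4 genes called in the interaction in red. The points follow the line (r = 0.853), and TRIM4 lies far from it at 0.22 in CDKO and -7.72 in CTRL.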

How the data were processed

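Bulk RNA sequencing had been done on total RNA, with a stranded total RNA kit, per the labels' protocols. The authors deposited raw counts per gene symbol in 2 tables, one per stage. The authors named GRCh38, cutadapt, FastQC and edgeR, per the submitters' processing notes. Which aligner, counter, annotation or strand option made the counts is not given in the sources at hand. The tables were joined by symbol, and 34217 of 36762 symbols (93.1%) matched 1 gene of GENCODE 29, which gave gene types, exons and coordinates. Every gene column was mapped to a group by its name.

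Counts of all 12 libraries were fitted together in edgeR 4.0.16 (R 4.3.3) with 4 group means, TMM scaling, filterByExpr and the quasi-likelihood test, adjusted by Benjamini-Hochberg over all genes at 0.05. The contrasts were CDKO iMeLC minus CDKO hESC, the same in CTRL, and their difference. CPM used TMM-scaled totals. SE is the absolute log2 fold change divided by the square root of the quasi-likelihood F statistic, not a separately estimated standard error. The fit was also run on simulated counts with known changes, and the outcome is not given here. Alternatives used DESeq2 1.42.0, other scalings and filters, thinned iMeLC counts and libraries left out. CDKO replicates differed by more than sampling noise (chi-square per gene 4.04 to 29.7). The same value was 7.89 to 17.7 between CTRL hESC libraries and 97.1 to 181 between CTRL iMeLC libraries. All 12 libraries shared the estimate of the spread behind the CDKO p-values. A fit on the 6 CDKO libraries alone called 6779 genes higher and 6121 lower among 18738 tested. The labels give each sample of a group its own line, so p-values measure the spread between libraries of different lines.

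Members and gene lists were chosen with earlier results of these data known. Named genes were TET1, TET2 and TET3, the 15 largest rises and 15 largest falls among called genes with at least 5 CPM and no overlap, all members of 7 lists, up to 6 members with the smallest adjusted p of the other lists, genes called in the interaction and the 6 called genes with the widest spread. Some genes that this rule names are not reported here.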

Additional observations from a re-analysis of the deposited data

Results flagged for a closer look

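Stage differences of 4 genes differed between CDKO and CTRL lines by the interaction test of edgeR, out of 20262 tested (0.0197%). For TRIM4 the CDKO difference minus the CTRL difference was 7.94 on the log2 scale (adjusted p = 1.23e-06), with adjusted p-values of up to 0.000295 over 22 alternatives. Its 3 CTRL iMeLC libraries were under 0.05 CPM, while the other 9 libraries lay between 5.3 and 10.1 CPM.

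MTRNR2L12, a humanin-like gene, differed by 2.09 (adjusted p = 0.0381). It had 93.5, 117 and 81.3 CPM in CDKO iMeLC, against 40.3, 76.3 and 59.3 CPM in CDKO hESC, and 42, 40.7 and 39 CPM in CTRL iMeLC, against 88.1, 124 and 101 CPM in CTRL hESC. ABCA1 differed by 2.4 and PKP3 by -1.75 (adjusted p = 0.0381 each). These calls were lost in 11 of 23 alternatives for MTRNR2L12, 13 for ABCA1 and 12 for PKP3. Without CDKO hESC 3 and CTRL hESC 1 their adjusted p-values were 0.172, 0.299 and 0.306.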

How the results depend on the processing

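Scaling moved the split of calls most. Of all calls 46.3% were lower in CDKO iMeLC, against 66.1% under library totals and 69.9% under upper quartile scaling. Under library totals 8795 genes were lower, 2182 higher by 2-fold and 5526 lower by 2-fold. Under upper quartile scaling 4113 were higher, 9561 lower, 1967 higher by 2-fold and 6124 lower by 2-fold. With at least 5 CPM in 3 libraries, where fewer genes were tested, 1983 were higher and 1739 lower by 2-fold. At an adjusted p under 0.01, 3721 were lower and the interaction held 1 gene. glmTreat against a fold change of 1.5 called 4014 higher and 2987 lower. The interaction held 210 genes by DESeq2 and 29 without a filter. Some alternatives were chosen after seeing the data. With protein-coding genes free of same-strand overlap 4318 were higher, 2106 by 2-fold, and 2153 were lower by 2-fold; without CDKO hESC 3 and CTRL hESC 1 the interaction held 1 gene, and a further one subtracted the median of genes with as many exons.

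Leaving out 1 library gave 5752 to 6715 higher, 4753 to 6206 lower, 3062 to 3599 higher and 3098 to 3891 lower by 2-fold. In the interaction it left 1 gene without CTRL hESC 1, CTRL hESC 3, CTRL1109 iMeLC, CDKO1102 iMeLC or CDKO1312 iMeLC, 2 without CDKO hESC 2, CTRL1106 iMeLC or CDKO1105 iMeLC, 3 or 4 without the others but 1, and 439 without CTRL1101 iMeLC.

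Over 248 named genes and 25 settings with a test, 5844 of 6122 values kept their direction and side of the threshold, 202 lost the call, 55 gained one and 21 changed sign. NANOG was -0.20 under library totals, -0.29 under upper quartile scaling, -0.11 at 5 CPM and -0.079 with protein-coding genes. MESP1 was -0.27, -0.36 and -0.15 under library totals, upper quartile and protein-coding genes, -0.023 without both hESC libraries, and -0.124 to 0.579 without single libraries. ZNRF3 was -0.14, -0.23, -0.050 and -0.017 under the settings of NANOG and -0.028 after the exon median. TRIM4 was -0.16, -0.25 and -0.075 under totals, upper quartile and 5 CPM, and -0.0074 with thinned counts. AXIN2 was -0.047 under upper quartile scaling. The causes were not tested. No paired analysis was possible because the hESC columns name a genotype and a number and no line. Depth limits genes of few counts, above all in CDKO hESC.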
